A study of Homo sapiens with 8 samples.

Results

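The neuronal and synaptic vesicle genes are a set of 43 genes that encode proteins of synaptic vesicles, the release machinery, secretory granules, the neuronal cytoskeleton, synaptic contacts and neuronal RNA-binding proteins. They were taken by symbol from a list that was chosen with earlier results of these data known. The shares of members that rise or fall are therefore not an independent test of the set. All 43 were found among the Ensembl identifiers of a table of 58884 genes. The RNA came from U87, an established human glioblastoma line. The 8 libraries fell into 4 groups of 2: cells kept long-term on AsiDNA and then given 1 µM belinostat for 24 h (the combination), cells given the same belinostat treatment alone, cells kept long-term on AsiDNA, and cells given the solvent DMSO. AsiDNA is a small DNA duplex that looks like a broken end and so draws repair enzymes away from the genome. Belinostat inhibits histone deacetylases, the enzymes that remove acetyl groups from histones. The dose and duration of AsiDNA are not given in the labels, and no label says whether the replicates came from separate cultures, so that the p-values reflect the spread among these libraries alone, and this spread may be technical.

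In neurons, neurotransmitter is packed into synaptic vesicles, which are tethered at the active zone, primed by UNC13 proteins and fused with the membrane by a SNARE complex of syntaxin, SNAP25 and VAMP2 when synaptotagmin binds calcium. Neuropeptides follow a separate route in dense-core granules, which hold chromogranins and secretogranins. In cells that are not neurons, many of these genes are held at a low level by REST, a zinc finger repressor that binds an element called RE1 and recruits the corepressors RCOR1 and SIN3A, the demethylase KDM1A and the deacetylases HDAC1 and HDAC2.

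Of the 43 genes, 23 had enough counts to be tested, 9 had a few counts and 11 had 0 counts in all 8 libraries. Belinostat raised most of the tested genes, in cells without AsiDNA and in cells kept on it. The vesicle membrane protein gene SYP and the priming gene UNC13A rose most among genes measured well above 1 normalised CPM under belinostat (CPM, counts scaled to the size of the library). Syntaxin 1A (STX1A), neurexin 2 (NRXN2) and the ubiquitin hydrolase UCHL1, all well expressed with DMSO, did not rise. The neurofilament genes and ELAVL4 had 0 counts in every library, and the granin genes CHGA, CHGB and SCG3 had 0 or a few.

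Promoter sequences are shown for 6 genes as examples. With belinostat against DMSO, SYN1, UNC13A, SYP and BEX1 rose, and STX1A and UCHL1 did not. SYN1 and UNC13A were tested through libraries where they were high, so the 6 do not test whether a motif goes with a rise. Each sequence covers 250 bases before and 50 after a start site annotated by RefSeq and reads 5′ to 3′ on the gene's strand. Capitals mark the letters of motifs found in the window on either strand: the RE1 core, which is AGCACC and GGACAG with 2 letters between them, or the same parts with 3 to 12 letters between them; the cAMP response element TGACGTCA; the GC box GGGCGG; and the TATA box TATAAA.
SYN1 promoter, GRCh38.p14, chrX:47619808-47620107, minus strand: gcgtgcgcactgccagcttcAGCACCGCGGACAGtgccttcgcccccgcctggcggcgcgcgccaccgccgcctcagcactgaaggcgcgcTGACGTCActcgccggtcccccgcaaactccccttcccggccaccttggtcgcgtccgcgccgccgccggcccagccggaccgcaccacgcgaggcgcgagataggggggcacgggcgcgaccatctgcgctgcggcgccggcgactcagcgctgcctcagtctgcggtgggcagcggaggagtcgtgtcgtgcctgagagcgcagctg
UNC13A promoter, GRCh38.p14, chr19:17688305-17688604, minus strand: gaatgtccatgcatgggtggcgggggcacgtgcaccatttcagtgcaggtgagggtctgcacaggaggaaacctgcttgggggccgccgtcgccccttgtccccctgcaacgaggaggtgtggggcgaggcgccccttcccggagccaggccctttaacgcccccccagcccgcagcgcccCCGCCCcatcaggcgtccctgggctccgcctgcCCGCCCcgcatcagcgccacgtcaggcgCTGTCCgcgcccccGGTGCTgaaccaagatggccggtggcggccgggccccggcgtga
SYP promoter, GRCh38.p14, chrX:49200144-49200443, minus strand: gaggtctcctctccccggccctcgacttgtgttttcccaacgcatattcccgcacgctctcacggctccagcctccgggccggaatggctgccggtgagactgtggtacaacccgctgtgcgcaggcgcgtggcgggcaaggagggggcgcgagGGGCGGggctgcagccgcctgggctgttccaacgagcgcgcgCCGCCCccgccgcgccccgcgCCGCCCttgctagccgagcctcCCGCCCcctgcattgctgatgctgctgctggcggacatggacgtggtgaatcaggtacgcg
BEX1 promoter, GRCh38.p14, chrX:103064122-103064421, minus strand: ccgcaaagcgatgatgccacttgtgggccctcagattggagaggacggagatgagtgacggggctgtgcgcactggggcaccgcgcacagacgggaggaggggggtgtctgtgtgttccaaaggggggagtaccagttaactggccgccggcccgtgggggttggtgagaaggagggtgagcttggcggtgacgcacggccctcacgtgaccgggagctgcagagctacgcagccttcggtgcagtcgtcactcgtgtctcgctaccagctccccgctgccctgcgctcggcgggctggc
STX1A promoter, GRCh38.p14, chr7:73719620-73719919, minus strand: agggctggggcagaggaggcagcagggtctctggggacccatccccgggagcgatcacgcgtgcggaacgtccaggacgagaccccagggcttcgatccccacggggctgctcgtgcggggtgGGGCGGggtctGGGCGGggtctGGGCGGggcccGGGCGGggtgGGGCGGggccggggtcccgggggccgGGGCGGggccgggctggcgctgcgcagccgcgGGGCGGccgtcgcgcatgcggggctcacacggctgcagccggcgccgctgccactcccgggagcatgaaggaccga
UCHL1 promoter, GRCh38.p14, chr4:41256678-41256977, plus strand: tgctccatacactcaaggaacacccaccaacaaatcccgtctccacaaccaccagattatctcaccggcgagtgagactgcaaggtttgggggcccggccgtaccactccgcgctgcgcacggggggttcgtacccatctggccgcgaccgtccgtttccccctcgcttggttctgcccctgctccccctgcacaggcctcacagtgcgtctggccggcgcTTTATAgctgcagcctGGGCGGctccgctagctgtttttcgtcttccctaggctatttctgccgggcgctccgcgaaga

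The RE1 core letters were found in the SYN1 window alone among the members' 62 windows, which cover 30 of the 43 genes. They occur in 0.057% of all 35116 promoter windows. UNC13A had both parts on the opposite strand with 8 letters between them. So did SCG3 on its own strand, a gene with 0 counts in every library. Both parts with any gap of 3 to 12 letters, on either strand, were held by 0.14% of all windows. The single parts AGCACC and GGACAG, of which the core and the spaced pair are made, occurred in 14 and 16 of the 62 member windows, and in 15.919% and 20.549% of all windows. SYN1 also held the cAMP response element, as did CHGA and DLG4 (1.848% of all windows). The GC box was found 7 times in the STX1A window and 4 times in that of SYP, and was in 28 of the 62 member windows, a share near the 44.954% of all windows. UCHL1 held a TATA box, as did DCX and RBFOX3 (11.53% of all windows), and the BEX1 window held none of the motifs. The members' windows had a median GC content of 61.2%, against 58.7% over all windows, and a median of 11 CpG against 14. These matches describe the letters of the windows and say nothing of binding in these cells.

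**Figure D1:**
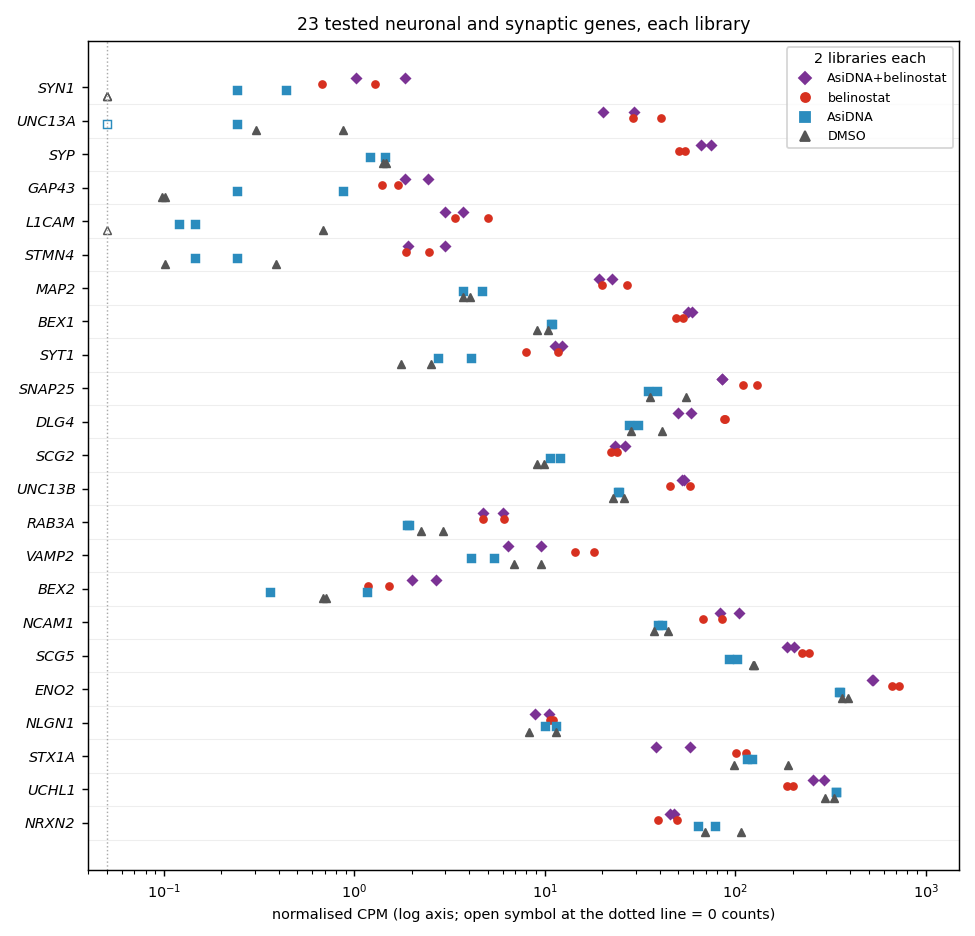
Normalised CPM of the 23 tested genes in each of the 8 libraries (log axis; open symbols on the dotted line are libraries with 0 counts). SYP and UNC13A stand at 20.2 CPM or higher in all 4 libraries with belinostat and below 1.5 CPM in the other 4, while STX1A, UCHL1 and NRXN2 do not stand higher with belinostat.

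Values below are normalised CPM for replicates 1 and 2 of a group. Fold changes are on the log2 scale ± the standard error, from edgeR's quasi-likelihood test over 14741 genes, and a gene was called at a Benjamini-Hochberg adjusted p under 0.05. Libraries held 6057394 to 9699637 counts, so that 3 counts equalled 0.292 to 0.506 normalised CPM. In this bulk RNA, more expression per cell and more cells that express a gene cannot be told apart. The DMSO replicates stood further apart than those of other groups: 11.1% of 8142 well-measured genes differed by over 1.5-fold between them, against 0.184% to 0.786% in the other groups. Among members measured with over 40 counts, STX1A, NRXN2 and SNAP25 were 1.93-, 1.55- and 1.53-fold higher in DMSO replicate 2 than in replicate 1. The nuclear RNAs MALAT1 and NEAT1 took 2.06% to 3.12% of counts in the combination, 12.2% to 13.4% with belinostat, 0.688% to 0.753% with AsiDNA and 0.911% to 2.81% with DMSO, and sense-intronic genes 0.044% to 0.0561%, 0.128% to 0.142%, 0.051% to 0.0556% and 0.057% to 0.113%. The part of these shares in the results was not tested.

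Belinostat against DMSO asks what deacetylase inhibition did to these genes in cells without AsiDNA. Of the 23 tested members, 18 rose, 2 fell and 3 were not called, where over all tested genes 29.8% rose and 27.6% fell. Their median log2 change was 1.29, against 0.06 over all genes. The 6 members that were not above the count limit of 1.22 CPM in both DMSO libraries (SYN1, UNC13A, STMN4, GAP43, L1CAM and BEX2) could be tested through the groups where they were high, so a rise was built into their being tested. Of the other 17, 13 rose, 2 fell and 2 were not called, with a median of 1.08, where 26.7% of all genes above the limit in both DMSO libraries rose and 31.8% fell.

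The comparison of the combination with AsiDNA asks the same of cells kept on AsiDNA, and shares no library with the first. Here 17 members rose, 2 fell and 4 were not called, where over all tested genes 21.7% rose and 21.2% fell. The median was 1.22, against 0.01 over all genes. Among the 17 members above the limit in both AsiDNA libraries, 12 rose and 2 fell, against 21.6% and 24.8% of all such genes. Called higher in both contexts were 16 of the 23 members, where 16.8% of all tested genes were, and NRXN2 was called lower in both. Of the 17 members above the limit in both DMSO and both AsiDNA libraries, 12 were called higher in both, where 16.3% of all such genes were. The fold changes had the same sign for 16 of these 17, where 80% of all such genes had. The exception was NLGN1, which was called in neither.

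**Figure D2:**
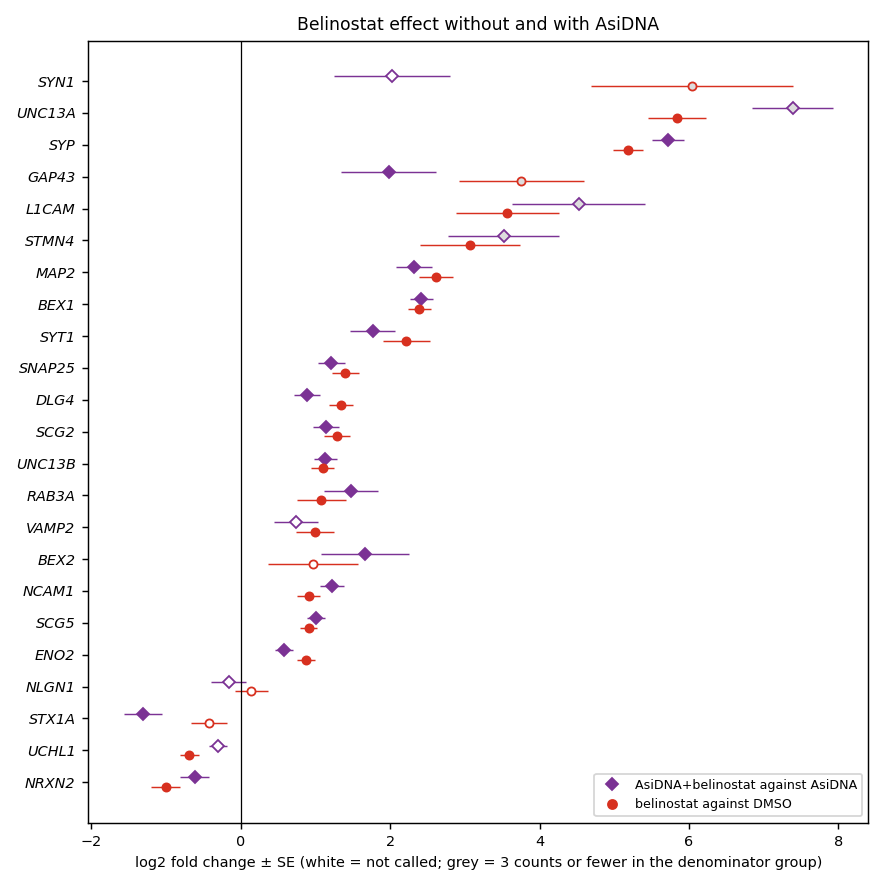
Log2 fold change ± SE of the 23 tested genes for the combination against AsiDNA (diamonds) and belinostat against DMSO (circles); white symbols were not called, and grey ones have 3 counts or fewer in the AsiDNA or DMSO group. Changes run from 7.39 for UNC13A to -1.31 for STX1A, both in the combination against AsiDNA.

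The vesicle proteins rose most clearly in SYP, synaptophysin, a major membrane protein of synaptic vesicles (ENSG00000102003, chromosome X, 49187804 to 49200259, minus strand, GRCh38). SYP stood at 54.4 and 50.8 CPM with belinostat, against 1.41 and 1.46 CPM with DMSO, and at 66.1 and 74.3 CPM in the combination, against 1.21 and 1.45 CPM with AsiDNA. Every library with belinostat lay far above every library without it, and the replicates of each group lay close together. The change was 5.18 ± 0.20 for belinostat against DMSO (36.3-fold, adjusted p = 2.16e-09) and 5.72 ± 0.21 for the combination against AsiDNA (52.7-fold, adjusted p = 1.75e-09). The gene SYP shares 68 of 5215 exon bases with SYP-AS1 on the opposite strand, and the strand setting of the counting is not given in the sources used here.

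SYT1, synaptotagmin 1, the calcium sensor of fast release (ENSG00000067715, chromosome 12), had 11.7 and 7.93 CPM with belinostat, against 2.52 and 1.75 CPM with DMSO, and 11.3 and 12.3 CPM in the combination, against 4.10 and 2.76 CPM with AsiDNA. Both belinostat groups lay above the groups without belinostat, by 2.21 ± 0.32 (adjusted p = 5.31e-05) and 1.76 ± 0.30 (adjusted p = 0.000397). RAB3A, a GTPase that brings vesicles to the active zone, had 6.08 and 4.73 CPM with belinostat, against 2.92 and 2.24 CPM with DMSO (1.08 ± 0.33, adjusted p = 0.0127), and 5.995 and 4.73 CPM in the combination, against 1.93 and 1.89 CPM with AsiDNA (1.47 ± 0.36, adjusted p = 0.00473). RAB3A did not overlap between the groups in either comparison, but its first call was lost without belinostat replicate 1 (0.79, adjusted p = 0.164) and in DESeq2 (adjusted p = 0.0601), with adjusted p up to 0.164 over all alternatives. It shares 165 of 1818 exon bases with MPV17L2 on the opposite strand.

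VAMP2, the vesicle SNARE, had 18.01 and 14.35 CPM with belinostat, against 6.86 and 9.52 CPM with DMSO (0.99 ± 0.25, adjusted p = 0.00452). In the combination it had 9.49 and 6.39 CPM, against 4.10 and 5.37 CPM with AsiDNA, which was not called (0.74 ± 0.30, adjusted p = 0.0607). The libraries did not overlap in either comparison. The VAMP2 call of belinostat against DMSO was lost without belinostat replicate 1 (0.72, adjusted p = 0.109, the highest over its alternatives), and a call in the combination was gained without either DMSO library (0.73 in both, adjusted p = 0.0133 and 0.0132). The gene shares 430 of 3268 exon bases with AC129492.3 on its own strand. SYN1, synapsin 1, which ties vesicles to the cytoskeleton (ENSG00000008056, chromosome X, 47571898 to 47619943, minus strand), had 1.29 and 0.675 CPM with belinostat and 0 counts in both DMSO libraries. With 3 counts over the DMSO group put in place of 0, the SYN1 ratio of belinostat to DMSO was 6.98 (adjusted p = 0.00214 in edgeR's test). This ratio leaves out the counting error of the 15 belinostat counts. In the combination SYN1 had 1.83 and 1.02 CPM, against 0.241 and 0.436 CPM with AsiDNA, which was not called (2.03 ± 0.78, adjusted p = 0.0521) but was without DMSO replicate 1 or 2 (adjusted p = 0.0343 and 0.0345). SYN1 thus lay at the lower end of detection in all groups, and it shares 297 of 3822 exon bases with AL009172.2 on its own strand. SYN2 and SYT4 are given with the rarely counted genes.

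Among the SNARE, priming and active zone genes, UNC13A, which primes docked vesicles (ENSG00000130477, chromosome 19, 17601328 to 17688365, minus strand), had 40.6 and 28.9 CPM with belinostat, against 0.302 and 0.875 CPM with DMSO. In the combination it had 29.3 and 20.2 CPM, against 0.241 and 0 CPM with AsiDNA. These are 347 and 171 counts with belinostat against 3 and 9 with DMSO, and 176 and 158 counts in the combination against 2 and 0 with AsiDNA. UNC13A was thus nearly silent without belinostat in all 4 libraries. The change was 5.84 ± 0.39 for belinostat against DMSO (57.4-fold, adjusted p = 9.99e-08), and 6.76 without DMSO replicate 2. In the combination the ratio to AsiDNA was 183, with an exact 95% interval of 50.4 to 1520 that covers counting error only (adjusted p = 4.6e-07). Its log2 change of 7.39 rests on 2 counts and became 10.62 without AsiDNA replicate 1 and 6.58 without AsiDNA replicate 2. The related UNC13B, which is expressed more widely, had 58.0 and 45.6 CPM with belinostat, against 22.8 and 25.9 CPM with DMSO (1.09 ± 0.15, adjusted p = 4.18e-05). It had 54.0 and 52.3 CPM in the combination, against 24.5 and 24.1 CPM with AsiDNA (1.13 ± 0.15, adjusted p = 6.37e-05). UNC13B did not overlap between the groups in either comparison, and unlike UNC13A it was well above detection in every library.

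SNAP25, a SNARE of the target membrane (ENSG00000132639, chromosome 20), had 110.0 and 129.8 CPM with belinostat, against 35.8 and 54.9 CPM with DMSO (1.40 ± 0.17, adjusted p = 1.77e-05). It had 85.1 and 85.3 CPM in the combination, against 38.9 and 34.6 CPM with AsiDNA (1.21 ± 0.18, adjusted p = 0.00013). Its partner STX1A, syntaxin 1A (ENSG00000106089, chromosome 7, 73699206 to 73719672, minus strand) was not called higher in either comparison. It had 101.0 and 113.6 CPM with belinostat, against 98.2 and 189.6 CPM with DMSO, and 57.5 and 38.3 CPM in the combination, against 114.9 and 122.3 CPM with AsiDNA. The first pair of groups overlapped, while both combination libraries lay below all 6 others. The change was -0.42 ± 0.24 for belinostat against DMSO (adjusted p = 0.148) and -1.31 ± 0.25 for the combination against AsiDNA (adjusted p = 0.000946). The first value turned on the DMSO library used: it was 0.10 with DMSO replicate 2 left out, and -0.83, which was called, with DMSO replicate 1 left out, with adjusted p from 9.01e-09 to 0.474 over the alternatives. STX1A shares 662 of 3693 exon bases with BUD23 on the opposite strand. CPLX1, CPLX2 and RIMS1, which regulate fusion at the active zone, were not testable.

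Both testable granule genes rose in both contexts. SCG2, secretogranin II, a granule protein and neuropeptide precursor, had 24.0 and 22.1 CPM with belinostat, against 9.88 and 9.04 CPM with DMSO (1.29 ± 0.18, adjusted p = 3.83e-05). In the combination SCG2 had 23.3 and 26.3 CPM, against 11.9 and 10.6 CPM with AsiDNA (1.14 ± 0.18, adjusted p = 0.000183). SCG5, also called 7B2, the chaperone of a prohormone convertase (ENSG00000166922, chromosome 15), had 223 and 243 CPM with belinostat, against 125 and 123 CPM with DMSO (0.91 ± 0.12, adjusted p = 2.69e-05). SCG5 had 187 and 203 CPM in the combination, against 102 and 92.2 CPM with AsiDNA (1.00 ± 0.12, adjusted p = 2.28e-05). All libraries with belinostat lay above all libraries without it for both genes.

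Of the 11 cytoskeleton and growth cone genes, 3 were testable, and all 3 rose in both contexts. MAP2, which stabilises microtubules in dendrites (ENSG00000078018, chromosome 2), had 27.0 and 19.9 CPM with belinostat, against 4.03 and 3.69 CPM with DMSO (2.61 ± 0.23, adjusted p = 8.68e-07). MAP2 had 19.3 and 22.4 CPM in the combination, against 3.74 and 4.65 CPM with AsiDNA (2.32 ± 0.24, adjusted p = 6.08e-06). All MAP2 libraries with belinostat lay above all those without it. GAP43, a growth cone protein of outgrowing axons, had 1.40 and 1.69 CPM with belinostat, against 0.101 and 0.0972 CPM with DMSO, which are 22 counts against 2 and a ratio of 15.4 with an exact 95% interval of 3.77 to 135 (adjusted p = 0.00175). GAP43 had 1.83 and 2.43 CPM in the combination, against 0.241 and 0.872 CPM with AsiDNA (1.98 ± 0.64, adjusted p = 0.0224). The GAP43 groups did not overlap, but the second call was lost without AsiDNA replicate 1 (1.28, adjusted p = 0.237), without either belinostat or combination library (adjusted p = 0.0504, 0.0508, 0.0639 and 0.173) and in DESeq2 (adjusted p = 0.0944). Without AsiDNA replicate 2 it was 3.08 and still called. STMN4, a stathmin that binds tubulin, had 2.46 and 1.86 CPM with belinostat, against 0.101 and 0.389 CPM with DMSO (3.07 ± 0.67, adjusted p = 0.00154). In the combination STMN4 gave 33 counts against 3 with AsiDNA, a ratio of 12.1 with an exact 95% interval of 3.79 to 61.5 (adjusted p = 0.00178). The STMN4 libraries with belinostat all lay above those without it, and the change against DMSO was 2.44 with DMSO replicate 1 left out and 4.21 with DMSO replicate 2 left out.

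The synaptic contact genes moved in different directions. NCAM1, a cell adhesion molecule of neurons and glia, had 84.8 and 67.3 CPM with belinostat, against 44.1 and 37.4 CPM with DMSO (0.91 ± 0.16, adjusted p = 0.000263). NCAM1 had 104 and 83.5 CPM in the combination, against 39.3 and 41.1 CPM with AsiDNA (1.22 ± 0.16, adjusted p = 4.21e-05). It did not overlap between the groups in either comparison, and shares 552 of 12737 exon bases with NCAM1-AS1 on the opposite strand. L1CAM, an adhesion molecule of growing axons, had 5.03 and 3.38 CPM with belinostat, against 0 and 0.680 CPM with DMSO (3.57 ± 0.69, adjusted p = 0.000623). In the combination it gave 47 counts against 2 with AsiDNA, a ratio of 25.8 with an exact 95% interval of 6.76 to 219 (adjusted p = 0.00113). All L1CAM libraries with belinostat lay above those without it, but the size against DMSO was 2.62 with DMSO replicate 1 left out and 8.02 with DMSO replicate 2 left out, which held all 7 DMSO counts. L1CAM shares 439 of 7270 exon bases with U52112.1 on its own strand and 359 with LCA10 on the opposite one.

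DLG4, the scaffold PSD-95 of the postsynaptic density, had 88.5 and 87.6 CPM with belinostat, against 28.4 and 41.1 CPM with DMSO (1.34 ± 0.17, adjusted p = 1.72e-05). DLG4 had 58.5 and 49.7 CPM in the combination, against 27.5 and 30.9 CPM with AsiDNA (0.89 ± 0.17, adjusted p = 0.00107). Its groups did not overlap. NRXN2, a presynaptic adhesion receptor (ENSG00000110076, chromosome 11), had 39.3 and 49.3 CPM with belinostat, against 69.6 and 107.6 CPM with DMSO (-1.01 ± 0.19, adjusted p = 0.000617). It had 45.1 and 47.4 CPM in the combination, against 63.6 and 78.4 CPM with AsiDNA (-0.61 ± 0.20, adjusted p = 0.021). All 4 NRXN2 libraries with belinostat lay below all 4 without it, and its second call was lost without AsiDNA replicate 2 (-0.46, adjusted p = 0.18) or either combination replicate (adjusted p = 0.12 and 0.0793). NLGN1, a neuroligin that binds neurexins across the cleft, had 10.6 and 10.97 CPM with belinostat, against 11.4 and 8.26 CPM with DMSO, and 10.5 and 8.82 CPM in the combination, against 11.4 and 10.0 CPM with AsiDNA. These libraries overlapped in both comparisons (0.14 ± 0.22, adjusted p = 0.618, and -0.16 ± 0.23, adjusted p = 0.605).

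Of the other neuronal markers, BEX1, a small adaptor protein of neural and endocrine cells (ENSG00000133169, chromosome X, 103062651 to 103064240, minus strand), had 53.3 and 48.8 CPM with belinostat, against 10.4 and 9.13 CPM with DMSO (2.39 ± 0.15, adjusted p = 7.37e-08). BEX1 had 59.0 and 56.6 CPM in the combination, against 10.9 and 10.8 CPM with AsiDNA (2.42 ± 0.15, adjusted p = 1.7e-07). The replicates lay close together and the change was nearly equal in both contexts. The related gene BEX2 had 1.52 and 1.18 CPM with belinostat, against 0.706 and 0.680 CPM with DMSO, which was not called (0.97 ± 0.60, adjusted p = 0.186). BEX2 had 1.998 and 2.68 CPM in the combination, against 0.362 and 1.162 CPM with AsiDNA (1.67 ± 0.59, adjusted p = 0.0351). That BEX2 call was lost without AsiDNA replicate 1 (1.01, adjusted p = 0.309), without either belinostat or combination library (adjusted p = 0.0684, 0.0674, 0.0814 and 0.228) and in DESeq2 (adjusted p = 0.123), and was 2.66 and still called without AsiDNA replicate 2.

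ENO2, the neuronal form of the glycolytic enzyme enolase (ENSG00000111674, chromosome 12), had 660.5 and 720.2 CPM with belinostat, against 362 and 392 CPM with DMSO (0.87 ± 0.12, adjusted p = 3.35e-05). ENO2 had 527 and 524 CPM in the combination, against 349 and 354 CPM with AsiDNA (0.58 ± 0.12, adjusted p = 0.00134). UCHL1, a deubiquitinase abundant in neurons (ENSG00000154277, chromosome 4, 41256413 to 41268455), had 201 and 188 CPM with belinostat, against 331 and 296 CPM with DMSO (-0.69 ± 0.12, adjusted p = 0.000329). UCHL1 had 255 and 292 CPM in the combination, against 339 CPM in both AsiDNA libraries, which was not called (-0.31 ± 0.12, adjusted p = 0.0545). No library of ENO2 with belinostat fell to the level without it, and no library of UCHL1 with belinostat reached the level without it. The second UCHL1 value was called in 8 of 17 settings, among them those without either DMSO library (adjusted p = 0.000634 and 0.000534) and DESeq2 (adjusted p = 0.0486), with adjusted p up to 0.333. UCHL1 shares 135 of 2282 exon bases with UCHL1-AS1 on the opposite strand.

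Of the 20 genes that could not be tested, 11 had 0 counts in all 8 libraries. These were SYT4, CPLX2, RIMS1, SCG3, CHGA, STMN2, ELAVL4, the neurofilament genes NEFL, NEFM and NEFH, and INA, which encodes the internexin of neuronal intermediate filaments. A library at 0 allows up to 3 counts, which is 0.292 to 0.506 normalised CPM. MAPT, the microtubule protein tau, had 11 and 1 counts with belinostat, against 4 and 3 with DMSO, and 7 and 10 counts in the combination, against 1 and 1 with AsiDNA. The MAPT ratio was 9.33 for the combination against AsiDNA (exact 95% interval 2.22 to 83.3) and 2.39 for belinostat against DMSO (0.869 to 7.17), where the 2 belinostat libraries lay on either side of the DMSO ones. STMN3, another stathmin, had 6 and 2 counts with belinostat, against 4 and 9 with DMSO, and 4 and 7 counts in the combination, against 5 and 3 with AsiDNA. SYN2, synapsin 2, had 0 and 4 counts with belinostat, against 5 and 4 with DMSO, and 3 and 4 counts in the combination, against 1 and 4 with AsiDNA. CHGB, chromogranin B, had 1 and 2 counts with belinostat, against 0 and 1 with DMSO, and 3 and 0 counts in the combination, against 4 and 0 with AsiDNA. The intervals of the ratios that were computed for STMN3, SYN2 and CHGB all included 1, so no change was detectable at this depth. The last 5, CPLX1, DCX, CAMK2B, ELAVL3 and RBFOX3, had 3 counts or fewer in any group, with no more than 2 in a library. The neuronal RNA-binding genes ELAVL3, ELAVL4 and RBFOX3 together had 0 counts in all 4 libraries with belinostat.

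**Figure D3:**
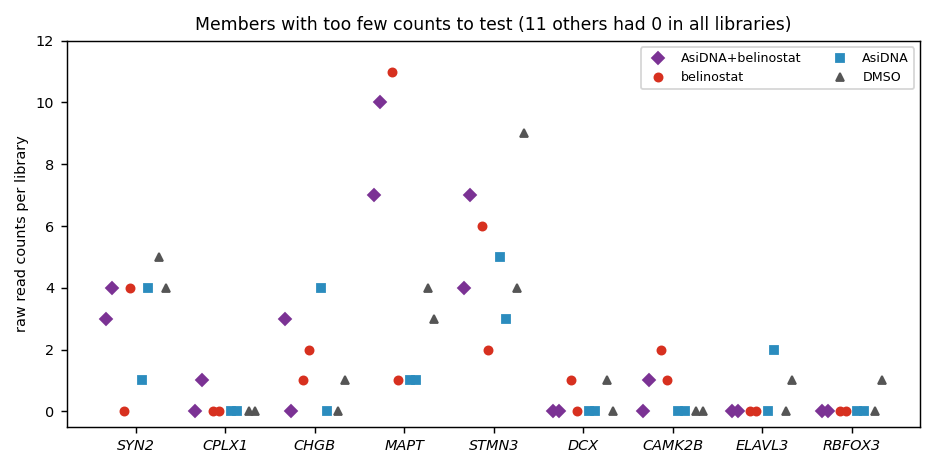
Raw read counts in each library for the 9 genes with too few counts to test. MAPT and STMN3 reach 7 or more counts in a library, and the 11 genes not drawn had 0 in all 8 libraries.

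Long-term AsiDNA by itself gave no call among the members. In AsiDNA against DMSO, edgeR called 0 of 23 members (background 0.0204%), with 4 at an unadjusted p under 0.05 (SYN1, VAMP2, SCG5 and GAP43), and DESeq2 called 0. VAMP2 had 4.10 and 5.37 CPM with AsiDNA, against 6.86 and 9.52 CPM with DMSO (-0.80 ± 0.29, adjusted p = 0.373), and SCG5 102 and 92.2 CPM against 125 and 123 CPM (-0.35 ± 0.12, adjusted p = 0.366). Neither gene overlapped between the groups. SYN1 gave 5 counts with AsiDNA against 0 with DMSO. With 3 counts put in place of 0 the ratio was 2.22, which leaves out the counting error of the 5. GAP43 gave 8 counts with AsiDNA against 2 with DMSO, a ratio of 5.32 (exact 95% interval 1.06 to 51.5). Without DMSO replicate 1, 7 members were called lower with AsiDNA, among them VAMP2 (-1.002, adjusted p = 0.00326), STX1A (-0.66, adjusted p = 7.47e-06), NRXN2 (-0.59, adjusted p = 9.45e-05) and SNAP25 (-0.56, adjusted p = 0.000486), where the remaining DMSO library is assumed to vary like the other groups. In that fit 24 members were tested, 4955 of all 15679 genes were called (31.6%), and 13.3% were called lower.

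In the combination against belinostat 2 of the 23 members were higher (22% of all genes) and 5 lower (21.4%). The share of members that were lower was near that of all genes, so that nothing is read from it about the members as a set. STX1A was lower by the most, at 57.5 and 38.3 CPM in the combination, against 101.0 and 113.6 CPM with belinostat (-1.17 ± 0.26, adjusted p = 0.00294). VAMP2 had 9.49 and 6.39 CPM in the combination, against 18.01 and 14.35 CPM with belinostat (-1.05 ± 0.27, adjusted p = 0.00669), and DLG4 58.5 and 49.7 CPM against 88.5 and 87.6 CPM (-0.71 ± 0.17, adjusted p = 0.00451). SNAP25 (-0.49 ± 0.17, adjusted p = 0.033) and ENO2 (-0.40 ± 0.12, adjusted p = 0.0156) were lower by less. UCHL1 was higher (0.49 ± 0.12, adjusted p = 0.00653), as was SYP, at 66.1 and 74.3 CPM in the combination, against 54.4 and 50.8 CPM with belinostat (0.41 ± 0.14, adjusted p = 0.025). For these 7 genes the libraries of the 2 groups did not overlap. The same held for SCG5, NLGN1, GAP43, BEX1 and BEX2, which were not called, so lack of overlap does not set the 7 apart. No call survived every omission of a library: without combination replicate 2 none of the 7 was called (adjusted p = 0.0621 for UCHL1, 0.0721 for STX1A, 0.1 for DLG4, 0.129 for VAMP2, 0.151 for ENO2, 0.16 for SYP and 0.197 for SNAP25), although each kept its sign. VAMP2 was also lost without belinostat replicate 1 (adjusted p = 0.0988), DLG4 without either belinostat replicate (adjusted p = 0.0533 and 0.0511), and SYP likewise (adjusted p = 0.0522 and 0.097). SNAP25 and ENO2 were lost without any 1 of the AsiDNA, belinostat or combination libraries.

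In the combination against DMSO, 18 members were higher (24.3% of all genes) and 2 lower (23.7%). The 6 members not above the count limit in both DMSO libraries were all among the 18, and a rise was built into their being tested. Of the other 17, 12 were higher and 2 lower. The shares of all genes above that limit are not given for this comparison, so this count has no matching background. The interaction, which tests whether the belinostat change differs with AsiDNA, gave 0 calls among the 23 members in edgeR (background 0.00678%), with 3 at an unadjusted p under 0.05, and 0 in DESeq2. The members with the smallest p were STX1A (-0.89 ± 0.35, adjusted p = 0.169), SYN1, whose 0 DMSO counts leave its size undefined (adjusted p = 0.211), and UCHL1 (0.38 ± 0.17, adjusted p = 0.22). Without DMSO replicate 2 it was called for 6 members (STX1A -1.43, DLG4 -0.73, SNAP25 -0.51, ENO2 -0.33, UCHL1 0.48 and NCAM1 0.44), and for 5358 genes in all (34.6%), so that the members' share of 6 in 24 lay below the background, while without DMSO replicate 1 it was called for NRXN2 (0.69, adjusted p = 0.00524) and 6.51% of all genes. Which members were called for a different belinostat response in cells kept on AsiDNA therefore depended on which DMSO library was left out. With both DMSO libraries kept, 0 of the 23 were called.

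**Figure D4:**
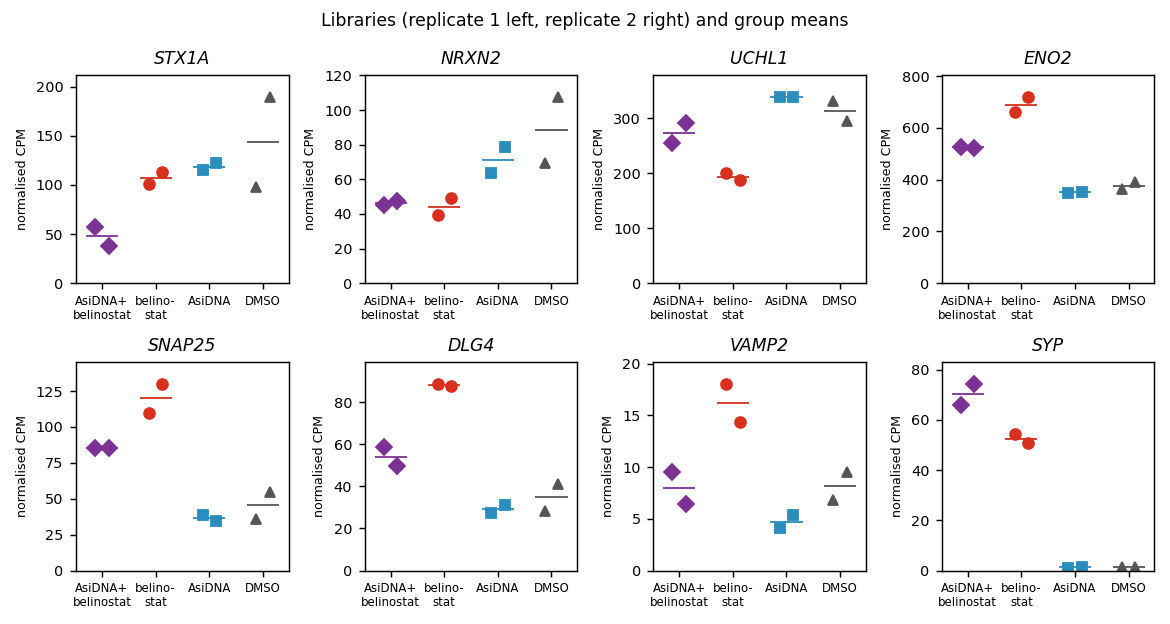
Normalised CPM of 8 genes in each library (replicate 1 left, replicate 2 right; lines are group means; axes start at 0). SNAP25, DLG4, VAMP2 and ENO2 are highest with belinostat alone, SYP in the combination, STX1A is lowest in the combination and UCHL1 with belinostat alone.

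The order of the 4 groups differed among the members, where neighbours in the order whose libraries overlapped are taken as not apart beyond their spread. For SYP the order was the combination, then belinostat, then DMSO and AsiDNA, which overlapped. SNAP25 and DLG4 were highest with belinostat, next in the combination, then with DMSO and AsiDNA, which again overlapped. For MAP2, UNC13B, NCAM1, STMN4 and L1CAM both belinostat groups were above both others, with overlap within either pair. NRXN2 was the reverse, with DMSO and AsiDNA above the combination and belinostat. UCHL1 was highest with AsiDNA, followed by DMSO, the combination and belinostat, with no overlap between neighbours. Lack of overlap with 2 libraries a group is not a test. In edgeR's test UCHL1 was not called in AsiDNA against DMSO (0.11 ± 0.12, adjusted p = 0.706). Nor was it called in the combination against DMSO (-0.20 ± 0.12, adjusted p = 0.195). For NLGN1 all neighbouring groups overlapped.

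Per kilobase of exon, a scale that allows levels to be compared between genes, the most abundant member with DMSO was UCHL1, at 137 CPM per kb, followed by ENO2 at 88.0, SCG5 at 56.6 and STX1A at 39.0 CPM per kb. With belinostat the order of these levels was ENO2 (161 CPM per kb), SCG5 (106), UCHL1 (85.1), BEX1 (59.1), SNAP25 (35.7) and STX1A (29.1). SYP reached 10.1 CPM per kb with belinostat, against 0.275 with DMSO, and so stayed below SNAP25 despite its larger fold change. UNC13A reached 3.10 CPM per kb, against 0.0526. The 43 genes summed to 1622 CPM in both combination libraries, 1826 and 1863 CPM with belinostat, 1151 and 1168 CPM with AsiDNA, and 1169 and 1317 CPM with DMSO. Of these sums, 59.4% to 70.0% came from ENO2, UCHL1 and SCG5. The other 40 genes summed to 653 and 603 CPM in the combination, 741 and 712 CPM with belinostat, 361 and 383 CPM with AsiDNA, and 351 and 506 CPM with DMSO. Within the sum, the vesicle proteins stood at 95.3 and 99.2 CPM in the combination and 91.4 and 79.2 CPM with belinostat, against 11.7 and 12.5 CPM with AsiDNA and 14.2 and 15.4 CPM with DMSO. Most of this with belinostat was SYP alone, at 66.1 and 74.3 CPM in the combination and 54.4 and 50.8 CPM with belinostat. SYP gave 1.21 and 1.45 CPM with AsiDNA and 1.41 and 1.46 CPM with DMSO.

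Markers of cell types were read to see which cells the RNA resembles. GFAP, the intermediate filament of astrocytes, had 0 counts in all libraries but the DMSO ones, which had 3 and 5, and AQP4 had 2 counts in 1 belinostat library and 0 elsewhere. VIM, vimentin, was abundant, with 23060 and 32202 counts in the combination, 12599 and 8102 with belinostat, 48768 and 41052 with AsiDNA, and 54653 and 35786 with DMSO. The oligodendrocyte factor SOX10 was at 0 in every library and the leukocyte gene PTPRC gave 1 count in all. The fibroblast and pericyte genes COL1A1 and PDGFRB were well expressed, at 826 to 2673 and 504 to 1367 counts. Of the 10 astrocyte and glioma markers 6 were testable, 2 rose and 1 fell with belinostat against DMSO. Over all tested genes 29.8% rose and 27.6% fell. The progenitor filament gene NES was among those that rose (2.60 ± 0.21, adjusted p = 4.57e-07) and VIM was the one that fell (-1.66 ± 0.19, adjusted p = 7.72e-06).

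Of 12 markers of neurons by transmitter, 5 were at 0 in every library (SLC17A6, SLC32A1, GAD2, TH and SLC18A3) and 2 were testable. SLC17A7, a vesicular glutamate transporter, had 23 and 13 counts with belinostat, against 0 and 1 with DMSO (adjusted p = 0.000273), and 7 and 6 counts in the combination, against 0 and 0 with AsiDNA (adjusted p = 0.00585). Without belinostat SLC17A7 had too few counts to pass the filter. It was tested through libraries with belinostat, so a rise was built into its being tested. GAD1, which makes the transmitter GABA, was not called in either comparison (-0.25 ± 0.29, adjusted p = 0.481, and -0.84 ± 0.33, adjusted p = 0.0534). The second GAD1 value was called in 7 alternatives, with the replicate as a block (adjusted p = 0.0285) and without either DMSO library (adjusted p = 0.00111 and 0.001) among them. The first was called without DMSO replicate 1 (-0.62, adjusted p = 0.00786) and was 0.18 without DMSO replicate 2. The 12 markers summed to 9.33 and 7.16 CPM in the combination, 14.6 and 22.3 CPM with belinostat, 11.6 and 13.8 CPM with AsiDNA, and 13.3 and 23.6 CPM with DMSO, most of it GAD1, and the belinostat and DMSO sums overlapped. Summed immune markers were 6.33 to 6.39 CPM in the combination, 6.55 to 6.92 with belinostat, 16.2 to 17.1 with AsiDNA and 19.3 to 20.8 with DMSO. For endothelial markers these ranges were 18.2 to 19.9, 22.95 to 27.9, 14.3 to 14.5 and 10.6 to 13.0 CPM, for oligodendrocyte markers 125 to 138, 74.9 to 94.2, 223 to 239 and 176 to 221 CPM, for fibroblast and pericyte markers 1360 to 1435, 1452 to 1580, 1644 to 1744 and 1885 to 1937 CPM, and for astrocyte and glioma markers 6821 to 6869, 3383 to 3460, 7784 to 7834 and 5207 to 7754 CPM. PECAM1, an endothelial adhesion gene, rose with belinostat in both contexts (1.98 ± 0.23 and 1.62 ± 0.25, adjusted p = 9.75e-06 and 0.000152). It was the only riser among 3 testable endothelial markers, whose median log2 changes were -0.72 and -1.16. The other 2, KDR (-1.16 ± 0.36, adjusted p = 0.0178) and TEK (-2.62 ± 0.85, adjusted p = 0.0238), fell in the combination against AsiDNA. Neither was called in belinostat against DMSO.

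The repressor REST and its corepressors, 23 genes of which 21 were testable, gave 7 rises and 2 falls in each of the comparisons of belinostat with DMSO and of the combination with AsiDNA, against 29.8% and 27.6%, and 21.7% and 21.2%, over all genes. The counts for belinostat against DMSO moved when a belinostat or DMSO library was left out. The shares over all genes moved as well, so nothing is read from this about these genes. REST itself had 69.2 and 68.2 CPM with belinostat, against 101.5 and 70.6 CPM with DMSO (-0.32 ± 0.16, adjusted p = 0.103), and 88.8 and 91.9 CPM in the combination, against 85.8 and 102.5 CPM with AsiDNA (-0.06 ± 0.16, adjusted p = 0.801). REST was not called in either comparison. Its change with belinostat against DMSO was called in 5 alternatives, among them scaling by library size (-0.45, adjusted p = 0.018) and the fit without DMSO replicate 2 (-0.59, adjusted p = 8.7e-06). The corepressor RCOR1 was called higher in the combination (0.38 ± 0.12, adjusted p = 0.0226) and not with belinostat alone (0.15 ± 0.12, adjusted p = 0.296). That RCOR1 call was lost under library size (adjusted p = 0.0918), with no filter (adjusted p = 0.12) and without any 1 of the AsiDNA or combination libraries (adjusted p = 0.114 to 0.161). KDM1A (-0.30 and -0.18), HDAC1 (0.02 and -0.29) and HDAC2 (-0.12 and 0.06) were called in neither. KDM1A was called lower with belinostat against DMSO in 9 alternatives, with adjusted p from 3.86e-05 (without DMSO replicate 2) to 0.0498 (without belinostat replicate 1), and in the combination against AsiDNA in 2, under library size and with the compared groups alone (adjusted p = 0.0311 and 0.0279). HDAC1 was called lower in the combination under the same settings (adjusted p = 0.00813 and 0.00574) and without either DMSO library (adjusted p = 0.0106 and 0.00967), and HDAC2 with belinostat without DMSO replicate 2 (-0.32, adjusted p = 0.00481). HDAC1 changed its sign under RLE factors (-0.01) and scaling by library size (-0.12), and HDAC2 in the combination under the latter setting (-0.07). The genes with the smallest adjusted p for belinostat against DMSO were PHF21A, a subunit of the same corepressor complex (1.36 ± 0.15), the phosphatase gene CTDSPL (-1.43 ± 0.16), RCOR3 (1.41 ± 0.19) and SIN3A (0.69 ± 0.12). In the combination against AsiDNA their values were 0.95, -0.78, 0.50 (adjusted p = 0.0682) and 0.60. RCOR3 was called there with the compared groups alone (adjusted p = 0.00335) and without either DMSO library (adjusted p = 0.00415 and 0.00444).

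The other lists of neuronal genes held rises and falls. Over all tested genes 29.8% rose and 27.6% fell with belinostat against DMSO, and 21.7% and 21.2% in the combination against AsiDNA. List counts near these shares, in this paragraph and the next, say nothing of a list as a set. The lists were not split by the count limit, so some rises may be built into the genes' being tested. Of 33 neurogenic transcription factors 9 were testable and 15 were at 0 in every library. In belinostat against DMSO 1 of them rose, ONECUT2 (1.42 ± 0.47), and 3 fell, DLX1 (-2.19 ± 0.26), DLX2 (-1.87 ± 0.41) and PAX6 (-0.46 ± 0.16). ONECUT2 was not called without belinostat replicate 1 (0.68, adjusted p = 0.393), with the compared groups alone (adjusted p = 0.0571) or in DESeq2 (adjusted p = 0.0796), nor PAX6 without DMSO replicate 2 or either belinostat library (adjusted p = 0.1, 0.0799 and 0.0502). In the combination against AsiDNA 2 rose and 4 fell. Of 79 other vesicle and release genes 52 were testable, of which 25 rose and 11 fell with belinostat against DMSO, and 18 rose and 6 fell in the combination against AsiDNA. DNM3, a dynamin of vesicle retrieval, changed by 2.67 ± 0.18, the active zone gene RIMS3 by 1.56 ± 0.13 and SYT13 by 2.53 ± 0.25 in the first comparison, while SYPL1, a synaptophysin relative found in many tissues, was lower by -1.91 ± 0.16.

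Of 21 other granule and prohormone genes 6 were testable, with 2 rises and 1 fall with belinostat against DMSO, and 3 and 1 in the combination against AsiDNA. CPE, a prohormone-processing carboxypeptidase, rose by 2.99 ± 0.24, PTPRN by 0.51 ± 0.11, PTPRN2 fell by 1.25 ± 0.19 on the log2 scale, and the neuropeptide precursor VGF was not called (0.58 ± 0.27, adjusted p = 0.0841) except without DMSO replicate 1 (1.02, adjusted p = 0.000248). Of 32 other cytoskeleton genes 23 were testable, with 10 rises and 4 falls, and 14 and 2 in the combination against AsiDNA. The axonal motor gene KIF5A rose by 2.81 ± 0.16, the microtubule end-binding gene MAPRE3 by 1.79 ± 0.17 and the axonal adhesion gene NFASC by 1.32 ± 0.18, while STMN1, the stathmin of dividing cells, fell by 2.17 ± 0.15. Of 48 other adhesion and postsynaptic genes 27 were testable, with 14 rises and 7 falls, and 10 and 5 in the combination. The synaptic adhesion gene CADM4 rose by 3.01 ± 0.25, CADM3 by 4.92 ± 0.45 with 5 counts over the DMSO libraries, CAMK2G by 1.43 ± 0.14 and the neuroligin NLGN2 by 1.08 ± 0.13. Of 20 neuronal RNA-binding and splicing genes 9 were testable, with 2 rises and 2 falls, and 1 and 1 in the combination. PTBP1, which represses neuronal exons in cells that are not neurons, fell by 0.79 ± 0.12, ELAVL1 fell by 0.69 ± 0.13 and RBFOX2 rose by 0.34 ± 0.11. The RBFOX2 call was lost in 10 alternatives, with no filter (adjusted p = 0.419), with the compared groups alone (adjusted p = 0.2), under library size (adjusted p = 0.0749) and without any 1 of the AsiDNA, belinostat or combination libraries (adjusted p = 0.0648 to 0.201) among them. NOVA2, a neuronal splicing factor, had 31 and 20 counts with belinostat, against 0 and 1 with DMSO (adjusted p = 0.000322). The other values in this and the preceding paragraph had adjusted p between 2.96e-08 and 0.0254 in belinostat against DMSO.

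**Figure D5:**
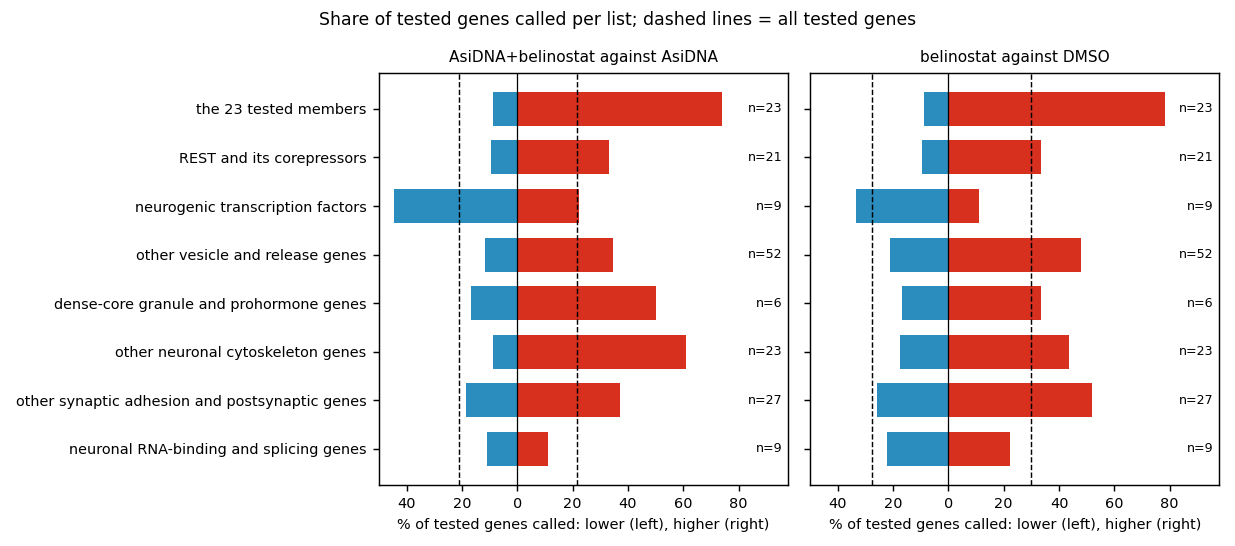
Percentage of the tested genes of each list that were called lower (left of 0) and higher (right of 0), in the combination against AsiDNA and in belinostat against DMSO; n is the number tested and dashed lines are the percentages over all tested genes. Of the 23 tested members 17 and 18 were called higher, and of the 9 tested neurogenic transcription factors 4 and 3 were called lower.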

How the data were processed

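RNA was isolated with a Roche High Pure kit, and stranded libraries came from a TruSeq total RNA kit of Illumina that depletes ribosomal RNA by Ribo-Zero Gold, per the labels' protocols. Cutadapt 1.16, STAR 2.7.0, featureCounts 1.6.3 of the Subread package and the GRCh38 build are named in the submitters' processing notes. What the authors deposited are raw counts of reads per gene. The annotation release used for counting, and whether strand was used, are not stated in the labels or notes, so overlapping and antisense genes are uncertain. All 8 columns were mapped to 1 of 4 groups by their labels.

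Statistics were computed from the counts in R 4.3.3 with edgeR 4.0.16. Low genes were removed by filterByExpr, TMM factors were applied, and all 8 libraries entered a single fit with a coefficient for each group (residual degrees of freedom 4, prior 9.56, common dispersion 0.014). The quasi-likelihood F-test of edgeR was applied to 5 comparisons and the interaction, with Benjamini-Hochberg adjustment over 14741 genes. The standard error is the absolute log2 fold change divided by the square root of F. Normalised CPM are counts scaled to the TMM-adjusted library size. Where a group held 3 counts or fewer, ratios carry exact (Clopper-Pearson) 95% intervals for counting error. For a group at 0, 3 counts were put in its place, and the counting error of the other group was left out. The steps were tested on simulated data.

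Gene positions and exon lengths are from GENCODE v29, and promoter sequences from RefSeq (GRCh38.p14), where 30 of 43 members matched by symbol. The members and all gene lists were chosen with earlier results of these data known. Named were all members, up to 4 tested genes of each other list with the smallest adjusted p for belinostat against DMSO, a few REST cofactors and cell type markers. Alternatives tried were a replicate block, DESeq2 1.42.0, RLE factors, library size only, no filter on low counts, a minimum of 1 CPM in 2 libraries, a fit of the compared groups alone, the 10 most abundant genes left out, an adjusted p under 0.01, and each library left out in turn.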

Additional observations from a re-analysis of the deposited data

How the results depend on the processing

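The members called higher with belinostat against DMSO and in the combination against AsiDNA stayed within 1.5 times their count under every alternative run. For single genes, settings other than leaving out a library gave 1500 values on the same side of the threshold with the same sign, 35 newly called, 42 no longer called and 11 of the other sign, and leaving out a library gave 1286, 28, 86 and 16. Counts of called members moved as follows, and the causes were not tested. The shares of all tested genes that were called moved with these settings as well. Nothing is therefore read from the counts below about the members as a set. At an adjusted p under 0.01, the members called lower in the combination against AsiDNA were 1, and those of the combination against belinostat were 1 higher and 3 lower. DESeq2 gave 1 higher in the combination against belinostat. With no filter on low counts the interaction had 1 member called lower. Leaving out a library gave 1 to 3 lower in the combination against AsiDNA, 0 to 7 lower in AsiDNA against DMSO, 0 to 3 higher and 0 to 7 lower in the combination against belinostat, and 0 to 2 higher and 0 to 4 lower in the interaction.

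Some log2 changes for belinostat against DMSO took the other sign when 1 library was left out, with ranges of -0.835 to 0.10 for STX1A, -0.102 to 0.375 for NLGN1, -0.732 to 0.183 for GAD1, -0.102 to 0.442 for CD68, -0.035 to 0.186 for RCOR1, -0.099 to 0.065 for HDAC1 and -0.324 to 0.07 for HDAC2. With no filter on low counts NLGN1 was -0.021, RCOR1 -0.008 and HDAC1 -0.144. HDAC1 was also -0.013 with RLE factors, -0.012 in DESeq2, -0.119 by library size, -0.067 at 1 CPM in 2 libraries and without the 10 most abundant genes, and -0.072 with the compared groups alone. In the combination against AsiDNA, SLC1A3 was -0.038 and HDAC2 -0.071 by library size, and REST ranged from -0.187 to 0.072 with 1 library left out. Scaling by library size put the median of all genes at -0.08, -0.12 and -0.20 in belinostat against DMSO, the combination against AsiDNA and the combination against DMSO, where TMM put it at 0.06, 0.01 and -0.01.

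Same-numbered replicates deviated together little or not at all (correlations of deviations from -0.196 to 0.139). With 2 libraries a group this cannot tell whether replicates of the same number were handled as pairs. With the replicate as a block, 18 members were called higher and 2 lower with belinostat against DMSO, 17 and 2 in the combination against AsiDNA, 2 and 5 in the combination against belinostat, 18 and 2 in the combination against DMSO and 0 in the other comparisons, while GAD1 in the combination against AsiDNA was then called lower (adjusted p = 0.0285). With 2 libraries a group, a fit without 1 of them assumes that the remaining one varies like the other groups. Genes with a few counts have wide intervals, and for the 20 untested members only changes of many fold would show at this depth.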
